A study of Mus musculus with 9 samples.

Results

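The levels of 10 target genes of the transcription factor p53 were followed through 9 RNA-seq libraries of mouse jejunal crypts: Cdkn1a, Ccng1, Sesn1, Mdm2, Phlda3, Aen, Bax, Bbc3, Pmaip1 and Eda2r. They were taken by symbol, and all 10 were found among the 23951 genes of each deposited table. Crypts are the pockets of the intestinal epithelium that house stem cells, dividing progenitors and Paneth cells. The 3 control libraries came from mice that the sample labels call control, treated with vehicle, and that the design text calls uninjected; their genotype is not given further. The 3 Smad4 KO libraries came from Smad4f/f;Villin-CreER(T2) mice, in which tamoxifen activates a recombinase under the Villin promoter of the intestinal epithelium and deletes Smad4, the shared transducer of BMP and TGF-beta signals. The 3 double-mutant libraries came from Smad4f/f; Ex3f/+;Villin-CreER(T2) mice, which in addition lose exon 3 of 1 beta-catenin allele and so make a stabilised form of this Wnt effector. Both mutant groups had tamoxifen for 4 days and were collected 1 day later, so tamoxifen and recombinase cannot be told apart from genotype. Ages are not given in the sources used here.

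In undamaged cells p53 is kept low by the ubiquitin ligase Mdm2, which is itself a p53 target and so closes a negative feedback loop. Damaged DNA, unbalanced ribosome production or oncogene activity stabilises p53, which then turns on genes that stop the cell cycle and genes that trigger mitochondrial apoptosis. In the small intestine the crypt is the compartment best known for p53-dependent arrest and apoptosis after radiation. Of the 10 genes, Cdkn1a (the CDK inhibitor p21), Ccng1 (cyclin G1) and Sesn1 (sestrin 1, a stress-induced inhibitor of mTORC1) belong to the arrest and stress side. Mdm2 and Phlda3, an inhibitor of AKT, act as brakes. Bax, the BH3-only genes Bbc3 (PUMA) and Pmaip1 (NOXA), the nuclease gene Aen and the TNF receptor family gene Eda2r belong to the apoptosis side.

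The sequences in which p53 would be sought first are the promoters, and 9 of the 10 genes had a promoter in the RefSeq table (build GRCm38.p6). The windows run from 250 bases before to 50 bases after each annotated start, and some genes have several. Each was searched for the p53 half-site, a palindrome of 10 bases that reads the same on both strands. Each was also searched for a full site, here 2 half-sites at most 1 base apart with at most 2 mismatches in all. The C and the G on either side of the 2 middle bases of each half-site had to match. A half-site was present for 6 of the 9 genes (Cdkn1a, Ccng1, Sesn1, Mdm2, Aen and Bax) and in 9.55% of all 27025 genes with a window. A full site was present for Cdkn1a, Ccng1 and Bax, against 0.807% of all genes. The full matches are shown because they belong to genes with different behaviour in the data below; capitals mark the match.
Cdkn1a, chr17:29090898-29090977, plus strand, 1 mismatch: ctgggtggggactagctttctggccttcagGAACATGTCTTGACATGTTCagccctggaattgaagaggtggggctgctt
Ccng1, chr11:40755432-40755511, minus strand, 1 mismatch: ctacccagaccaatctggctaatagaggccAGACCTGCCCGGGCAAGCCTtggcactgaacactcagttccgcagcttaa
Bax, chr7:45467049-45467129, minus strand, 2 mismatches and 1 base between the half-sites: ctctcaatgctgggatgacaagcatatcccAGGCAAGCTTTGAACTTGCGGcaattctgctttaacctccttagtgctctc
The Cdkn1a match begins 51 bases before an annotated start, the Ccng1 match 195 bases and the Bax match 201 bases before theirs. The window of another annotated Cdkn1a start, chr17:29093519-29093818, held neither motif. The windows of Phlda3, Bbc3 and Eda2r held neither motif, which says only that these letters are not within those windows. The full and half-site search used the sequence alone, and no binding was measured.

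Expression was deposited as FPKM, fragments scaled to transcript length and library size, in 2 tables. The first holds the controls and Smad4 KO, and the second holds the same controls and the double mutants, scaled separately. The absolute depth is unknown. Summed FPKM ran from 568081 to 758719 per library, and 11196 to 11935 genes reached 1 FPKM. Smad4 itself was at 46.1, 55.5 and 47.8 FPKM in the controls (0, 1 and 2, in this order here and below), against 11, 9.96 and 10.8 in Smad4 KO. It was at 11.2, 10.2 and 9.95 in the double mutants. Every mutant library thus matched its label for Smad4. Smad4 KO 0 stands apart from the other libraries of its group in the p53 targets, so Smad4 KO values are given below with and without this library.

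In control crypts the 10 genes spanned a wide range. FPKM is per length, so the levels compare between genes. In order of control mean in the first table, Cdkn1a was highest at 61.8 FPKM, then Bax (50.3), Sesn1 (46.7), Ccng1 (28.9), Mdm2 (17.4), Pmaip1 (11.2), Aen (8.28), Bbc3 (1.15), Eda2r (0.424) and Phlda3 (0.351). The ranges of neighbours in this order overlapped for Bax and Sesn1, Sesn1 and Ccng1, Pmaip1 and Aen, and Eda2r and Phlda3. Cdkn1a and Sesn1, which are not neighbours, overlapped as well (53.9 to 72.8 and 30.1 to 59.1 FPKM). Control libraries agreed closely for Bax and Mdm2, with coefficients of variation of 4.86% and 6.99%. Phlda3 and Sesn1 varied most among controls, at 52.2% and 32%. Phlda3 and Eda2r had a control mean below 1 FPKM and so entered the tests only through the mutant libraries, which fixed the direction of their difference.

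**Figure D1:**
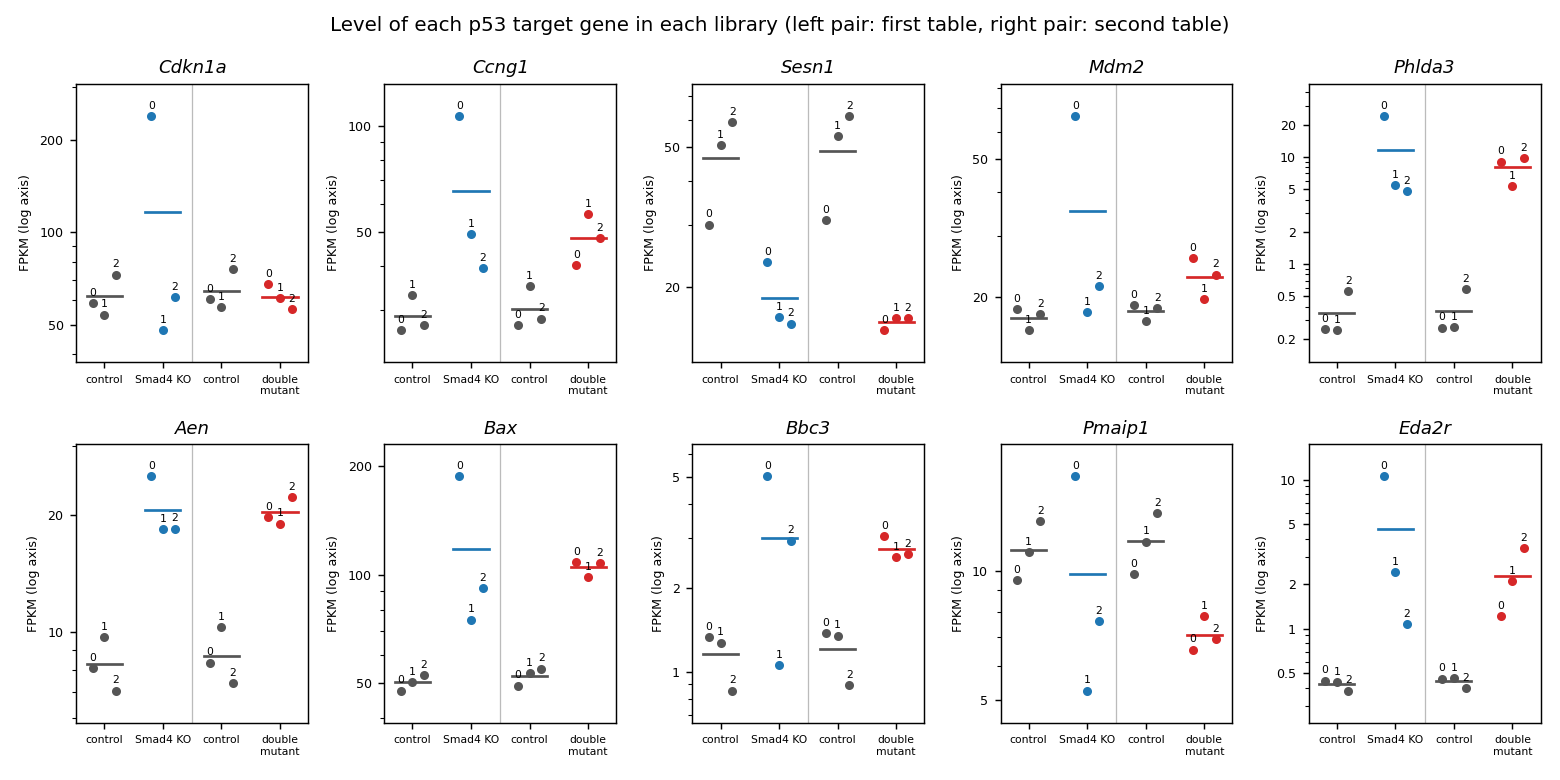
FPKM (log axis) of the 10 genes in each library, numbered 0 to 2, with controls and Smad4 KO from the first table on the left of each panel and controls and double mutants from the second table on the right; lines are group means. Smad4 KO 0 lies above the other Smad4 KO libraries in every panel, while the double mutants lie close together for most genes.

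The first comparison asked what deleting Smad4 did to the p53 targets. No member passed the test across all genes in Smad4 KO, and 1 library differed from the other 2. Of the 10 genes, 0 were called by limma at an adjusted p below 0.05, where 0.0338% of 11849 genes were called (0.00844% higher and 0.0253% lower). Unadjusted limma p-values below 0.05 were found for 6 members (5 higher, 1 lower) and for 19.1% of genes (9.76% higher and 9.34% lower). The log2 fold change was positive for 8 members and for 49.6% of genes. The median log2 fold change of the members was 0.90, against 0.00 over all genes. In 5 genes (Ccng1, Phlda3, Aen, Bax and Eda2r) all Smad4 KO libraries lay above all controls, against 14.2% of genes. In 1 gene, Sesn1, all lay below, against 12.2%. Among the 8 members whose control mean alone reaches 1 FPKM, without Phlda3 and Eda2r, 3 lay above all controls (13.8% of the 11517 such genes) and the median log2 fold change was 0.75. The exact two-sided permutation p cannot go below 0.1 with 3 libraries against 3, and it was 0.1 for each of these 6 genes.

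Smad4 KO 0 was the highest of the 6 libraries for 9 of the 10 genes, against 18.3% of all genes tested. It lay above all controls in 9 genes (31.2% of all genes) and above 2 times the highest control in 8 (3.18%). Smad4 KO 1 was above all controls in 5 genes (33.1%) and above 2 times the highest in 2 (0.836%). For Smad4 KO 2 these counts were 7 (34.3%) and 3 (2.57%). Phlda3 and Eda2r, which entered the tests only through the mutant libraries, are in all of these counts. In Smad4 KO 1 they are the only members above 2 times the highest control. On the log2(FPKM + 1) scale the median member was above the control mean by 1.87 in library 0, 0.31 in library 1 and 0.49 in library 2 of Smad4 KO. The median of all genes was between -0.01 and 0.01 in these libraries. The members had a median coefficient of variation of 63.2% within Smad4 KO, against 16.6% for all genes, and all 10 were above that 16.6%. Without Smad4 KO 0 the median log2 fold change of the 9 members that still passed the filter was 0.41, and 6 of the 9 had a positive value.

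**Figure D2:**
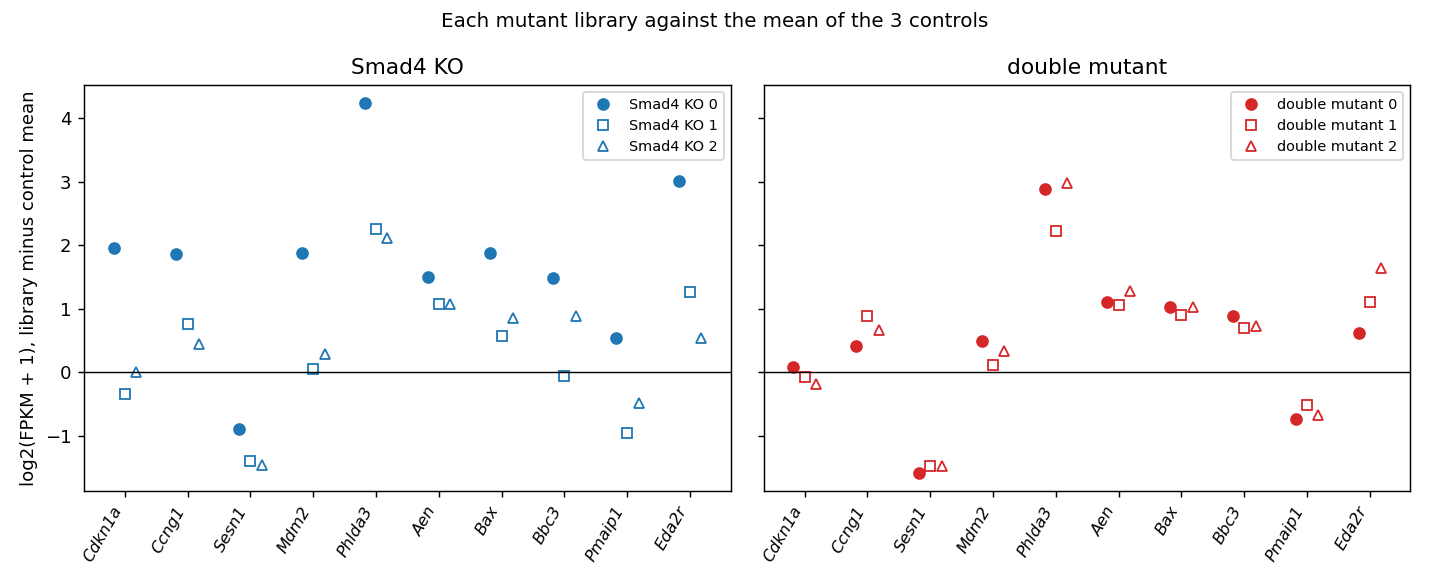
Difference of each mutant library from the mean of the 3 controls, in log2(FPKM + 1), for each gene; Smad4 KO on the left, double mutants on the right, with marker shapes for libraries 0, 1 and 2. Smad4 KO 0 (filled circles) lies near 1.9 for Cdkn1a, Ccng1, Mdm2 and Bax, where the other Smad4 KO libraries lie between -0.35 and 0.85.

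Among the arrest and stress genes, Cdkn1a depended most on that library. It was at 58.8, 53.9 and 72.8 FPKM in controls and at 241, 48 and 61.5 in Smad4 KO. Smad4 KO 0 stood at 3.9 times the control mean, Smad4 KO 1 below all controls and Smad4 KO 2 within their range. The log2 fold change was 0.54 (SE 0.60, limma adjusted p = 0.659) with all libraries and -0.17 (limma adjusted p = 0.613) without Smad4 KO 0. Ccng1 was at 26.4, 33 and 27.2 FPKM in controls and at 107, 49.2 and 39.5 in Smad4 KO. All 3 mutant libraries lay above the controls, yet the difference did not pass (log2 fold change 1.02 with SE 0.37, limma adjusted p = 0.223; 0.60 and 0.138 without Smad4 KO 0). Sesn1, by contrast, lay below control. It was at 30.1, 50.8 and 59.1 FPKM in controls and at 23.6, 16.4 and 15.7 in Smad4 KO, 39.8% of control. Here Smad4 KO 0 was the highest of its group but still below every control (log2 fold change -1.25 with SE 0.29, limma adjusted p = 0.134; -1.43 and 0.115 without Smad4 KO 0).

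The brakes on p53 and AKT signalling differed in size. Mdm2 was at 18.4, 16 and 17.8 FPKM in controls and at 66.7, 18 and 21.4 in Smad4 KO. Smad4 KO 0 was at 3.83 times the control mean, Smad4 KO 1 lay within the control range and Smad4 KO 2 above it (log2 fold change 0.74 with SE 0.48, limma adjusted p = 0.444). Without Smad4 KO 0 the log2 fold change was 0.17 (limma adjusted p = 0.468). Phlda3 was at 0.247, 0.244 and 0.563 FPKM in controls and at 24.2, 5.44 and 4.82 in Smad4 KO. Even the lower 2 mutant libraries averaged 14.6 times the control mean, and Smad4 KO 0 reached 68.9 times. The difference did not pass over all genes (log2 fold change 2.87 with SE 0.58, limma adjusted p = 0.122; 2.19 and 0.0776 without Smad4 KO 0).

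Of the apoptosis genes, Aen was the most even across Smad4 KO. It was at 8.09, 9.7 and 7.07 FPKM in controls and at 25.1, 18.3 and 18.4 in Smad4 KO, a ratio of means of 2.49 (log2 fold change 1.21 with SE 0.17, limma adjusted p = 0.106). The groups did not overlap, and without Smad4 KO 0 the ratio was 2.22 and the log2 fold change 1.07 (limma adjusted p = 0.113). Bax, the pore former of the outer mitochondrial membrane, was at 47.8, 50.5 and 52.7 FPKM in controls and at 187, 75.1 and 91.7 in Smad4 KO. Its groups did not overlap either (log2 fold change 1.10 with SE 0.34, limma adjusted p = 0.185; 0.71 and 0.114 without Smad4 KO 0). Bbc3 was at 1.33, 1.27 and 0.855 FPKM in controls and at 5, 1.06 and 2.95 in Smad4 KO, so that Smad4 KO 1 lay within the control range (log2 fold change 0.77, limma adjusted p = 0.351; 0.41 and 0.506 without Smad4 KO 0). Pmaip1 was at 9.5, 11 and 13 FPKM in controls and at 16.6, 5.26 and 7.62 in Smad4 KO, with 1 library above and 2 below all controls (limma adjusted p = 0.697). Its log2 fold change was -0.30, with -0.72 without Smad4 KO 0 (limma adjusted p = 0.148) and 0.02 without Smad4 KO 1. Eda2r was at 0.447, 0.439 and 0.384 FPKM in controls and at 10.5, 2.4 and 1.07 in Smad4 KO, above the controls throughout (log2 fold change 1.60 with SE 0.62, limma adjusted p = 0.247). Without Smad4 KO 0 its mean over the libraries fell under 1 FPKM and it was not tested.

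Smad4 KO 0 also differed from the rest of its group in markers of some cell types and in sex. All 9 Paneth cell markers tested were at their lowest in this library; their summed level was 10100 FPKM there, 72300 and 150000 in Smad4 KO 1 and 2, and 61400 to 161000 in controls. Defa5, the 10th marker listed, was at 0 in every library. The 10 crypt base and cycling markers summed to 464 FPKM in Smad4 KO 0, 1290 and 1370 in the others and 848 to 1810 in controls, and 5 of the 10 were lowest in Smad4 KO 0. The 10 enterocyte markers summed to 14200 FPKM in Smad4 KO 0 against 1010 and 2220 in the others and 3740 to 10700 in controls. Only 4 of the 10 were at their highest in Smad4 KO 0, among them Apoa4 and Fabp1 at 3.83 and 3.61 times the control mean, while Sis was at 0.639 times and Lct at 0.799 times. The 8 enteroendocrine markers summed to 665 FPKM there, against 365 and 380 in the others and 247 to 337 in controls. By Xist and Y-linked transcripts, Smad4 KO 0 was the 1 male library of its group, while the controls held 2 male libraries and the double mutants 1. The part of cell makeup or sex in the p53 targets was not tested. In bulk libraries, fewer cells of a type and less RNA per cell cannot be told apart. With sex as a covariate the count of called members in Smad4 KO was 0, and with all 9 libraries in a single fit it was 3: Aen and Phlda3 higher and Sesn1 lower (limma adjusted p = 0.0213, 0.0345 and 0.0381). Of all 11841 genes in that fit, 272 were called higher and 179 lower in Smad4 KO. That fit pools the spread of all groups and sets the double mutants on the scale of the first table.

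The second comparison asked what the same genes did when beta-catenin was stabilised as well. In the double mutants 6 of the 10 genes rose (Phlda3, Aen, Bax, Bbc3, Eda2r and Ccng1) and 2 fell (Sesn1 and Pmaip1). Limma called 18.5% of 11762 genes, 9.39% higher and 9.09% lower, and 9 members against 36.6% of genes had an unadjusted limma p below 0.05. The log2 fold change was positive for 7 members, against 49.9% of genes. All 3 double mutants lay above all controls in 7 genes, against 21.3% of genes, and below them in 2 genes, against 21.3%. The median log2 fold change was 0.71, against 0.00 over all genes, and it was 0.36 with a pseudocount of 5. Phlda3 and Eda2r reached the test only through the mutant libraries. Among the 8 other members 4 rose and 2 fell (9.27% and 9.27% of the 11527 genes with a control mean of at least 1 FPKM), 5 lay above all controls (21.1%) and the median log2 fold change was 0.48. The libraries were alike: the median member was 0.55, 0.79 and 0.70 above the control mean on the log2(FPKM + 1) scale in double mutants 0, 1 and 2. In each, 7 members lay above all controls (32.8%, 34.1% and 33.2% of genes), and 3, 2 and 3 members lay above 2 times the highest control (2.3%, 1.23% and 1.52% of genes). Phlda3 and Eda2r are in each of these counts. The only others above 2 times the highest control were Bbc3 in double mutant 0 and Aen in double mutant 2. The members had a median coefficient of variation of 9.77% within the double mutants, against 11.3% for all genes.

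Phlda3 had the highest ratio of means, 21.9. It was at 0.255, 0.258 and 0.587 FPKM in the controls of the second table and at 9.05, 5.34 and 9.66 in the double mutants. The lowest double mutant was 14.6 times the control mean (log2 fold change 2.69 with SE 0.24, limma adjusted p = 0.00694; 1.26 and 0.0118 with a pseudocount of 5, where Sesn1 had -1.32). From the lowest of the 10 genes in controls, Phlda3 came level with Pmaip1 in the double mutants, where the ranges of the pair overlapped. Mdm2, the other brake, was at 18.9, 17 and 18.5 FPKM in controls and at 25.8, 19.6 and 23.2 in the double mutants. The groups did not overlap, but the log2 fold change of 0.31 did not pass (SE 0.12, limma adjusted p = 0.117).

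The apoptosis genes split. Bax rose from 49.3, 53.5 and 54.9 FPKM in controls to 108, 98.5 and 107 in the double mutants, a ratio of 1.99 with little spread on either side (log2 fold change 0.98 with SE 0.09, limma adjusted p = 0.00832). Aen rose from 8.34, 10.3 and 7.37 to 19.7, 19 and 22.1 FPKM, a ratio of 2.34 (log2 fold change 1.15 with SE 0.13, limma adjusted p = 0.0116). Bbc3 remained a weakly expressed gene but rose from 1.37, 1.35 and 0.892 to 3.06, 2.57 and 2.63 FPKM (log2 fold change 0.77 with SE 0.16, limma adjusted p = 0.0273; 0.32 and 0.0247 with a pseudocount of 5). The groups of all 3 genes were separate. The Bbc3 call was lost in the fit of all 9 libraries (limma adjusted p = 0.169). It was also lost without control 2 or any 1 double mutant (0.0557 to 0.103). Eda2r rose from 0.461, 0.466 and 0.4 to 1.22, 2.08 and 3.48 FPKM, with the widest spread of the members that passed (log2 fold change 1.12 with SE 0.28, limma adjusted p = 0.0411). The Eda2r call was lost with a pseudocount of 5 (log2 fold change 0.40), without a filter, with quantile normalization, with sex, with the replicate block, in the joint fit and without any 1 library that left it tested (limma adjusted p from 0.0529 to 0.218). Pmaip1, a BH3-only gene like Bbc3, moved the opposite way, from 9.79, 11.7 and 13.6 FPKM to 6.54, 7.82 and 6.91, which is 60.7% of control (log2 fold change -0.64 with SE 0.14, limma adjusted p = 0.0299). The Pmaip1 call was lost without a filter (limma adjusted p = 0.0549), with sex as a covariate (0.0514) and in the fit of all 9 libraries (0.218). It was also lost on leaving out any 1 library except control 0 (0.0586 to 0.112).

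The arrest and stress genes went different ways. Cdkn1a, whose full-site match lies nearest to an annotated start in the sequences above, was at 60.6, 57.1 and 75.9 FPKM in controls and at 68, 60.8 and 56 in the double mutants. The groups overlapped (log2 fold change -0.06 with SE 0.14, limma adjusted p = 0.785), and the sign was positive without control 2 (0.06) or double mutant 2 (0.005) and without the 50 highest genes in the scaling (0.004). Ccng1 rose from 27.2, 35 and 28.3 to 40.1, 56.2 and 48.1 FPKM (log2 fold change 0.65 with SE 0.16, limma adjusted p = 0.0392). The Ccng1 call was lost without a filter (limma adjusted p = 0.0624) and in the fit of all 9 libraries (0.209). It was also lost on leaving out any 1 library except control 1 (0.065 to 0.131). Sesn1 fell from 31, 53.8 and 61.6 to 15.1, 16.3 and 16.3 FPKM, 32.5% of control (log2 fold change -1.51 with SE 0.25, limma adjusted p = 0.0181). The double mutants were almost equal for Sesn1, while control 0 lay well below the other controls.

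Which of these genes passed depended on single libraries, although no called member changed direction. Without control 2 there were 4 called members, without double mutant 0 there were 2 (Phlda3 and Bax), without double mutant 1 there were 3 (Phlda3, Aen and Bax), and without double mutant 2 there were 0. Over all genes the calls then numbered 1064, 139, 708 and 30, and 1175 without control 1. Without 1 library, the log2 fold changes of Phlda3 ran from 2.56 to 2.93, Bax from 0.94 to 1.03 and Aen from 1.05 to 1.26. In the single fit of all 9 libraries 3 members were called (Aen, Sesn1 and Phlda3; limma adjusted p = 0.00749, 0.0119 and 0.0193). Of all 11841 genes in that fit, 943 were called higher and 760 lower in the double mutants.

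**Figure D3:**
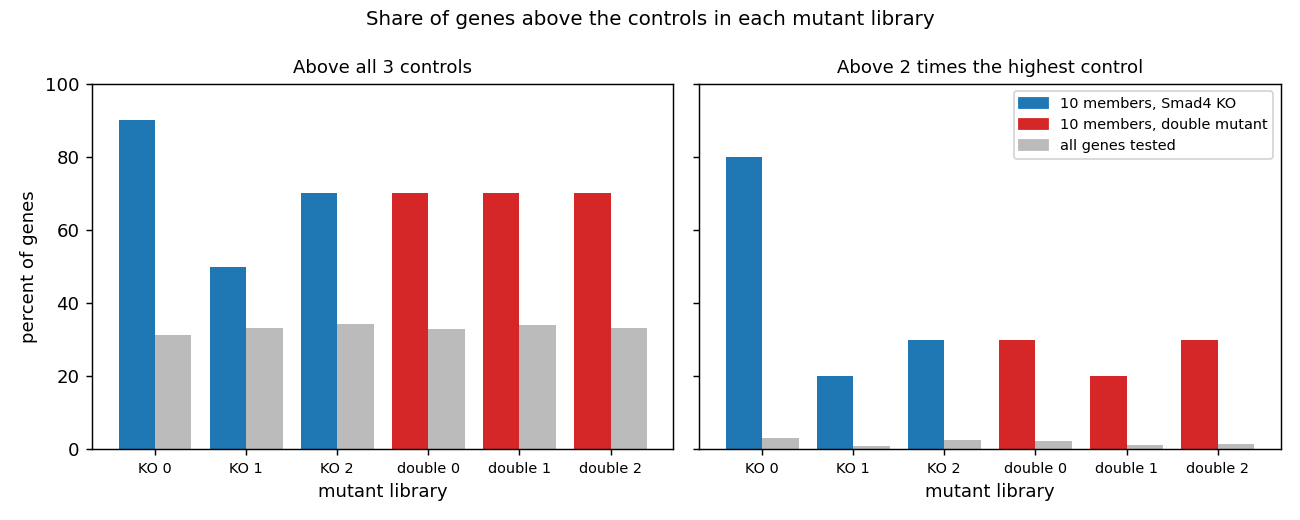
Percent of genes above the controls in each mutant library, for the 10 p53 targets (blue Smad4 KO, red double mutant) and for all genes tested (grey); left, above all 3 controls, right, above 2 times the highest control. Smad4 KO 0 has 9 and 8 of the 10 genes past these marks, and each double mutant has 7 of 10 above all controls. Phlda3 and Eda2r, which entered the tests only through the mutant libraries, are past both marks in every mutant library.

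Markers of some cell types differed in the double mutants too. Limma called 9.39% of all genes higher and 9.09% lower. Of 10 enterocyte markers 9 fell, and their summed level was 1090 to 2120 FPKM against 3860 to 11100 in controls. Of 9 immune cell markers tested 6 fell (summed level 29.5 to 73.4 against 111 to 184 FPKM). Of 10 crypt base and cycling markers 3 rose, while their summed level of 1160 to 1820 FPKM lay within the control range of 885 to 1920. Of 9 Paneth and 5 tuft cell markers tested 0 were called. Of 7 goblet cell markers 1 fell, and of 8 enteroendocrine markers 1 rose. The 11 listed stroma, muscle and endothelium markers summed to 57.8 FPKM in double mutant 0 and 91.2 in Smad4 KO 2, against at most 24.1 in any other library. The part of these cell types in the p53 targets was not tested. The mutant groups share their controls and come from separately scaled tables, so no test was made between them. Side by side, Phlda3 was at 4.82 to 24.2 FPKM in Smad4 KO and 5.34 to 9.66 in the double mutants, and Aen at 18.3 to 25.1 and 19 to 22.1. Cdkn1a was at 48 to 241 and 56 to 68 FPKM, and Sesn1 at 15.7 to 23.6 and 15.1 to 16.3.

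Of 13 tested genes of p53 and its regulators, 1 rose and 0 fell in the double mutants, where 9.39% of all genes rose and 9.09% fell, so the count was near the background. In Smad4 KO limma called 0 of the 13, and 1 had an unadjusted p below 0.05, against 19.1% of genes. Atr, a kinase that signals replication stress, rose from 7.36, 7.12 and 6.33 FPKM to 9.01, 9.83 and 10.8 (log2 fold change 0.45 with SE 0.10, limma adjusted p = 0.0364). Trp53, the gene of p53 itself, was at 47.8, 50.8 and 41.3 FPKM in controls and at 57.9, 61.7 and 62.5 in the double mutants. The groups were separate, and the log2 fold change of 0.38 missed the threshold (SE 0.10, limma adjusted p = 0.0541). In Smad4 KO Trp53 was at 46.4, 53.9 and 54.8 FPKM against 46.4, 47.9 and 39.6, with Smad4 KO 0 at the level of the controls (limma adjusted p = 0.402). Ppm1d, a phosphatase that acts against p53, was at 6.58 ± 0.0972 FPKM in the double mutants and 4.92 ± 0.524 in controls (SD, n = 3 each; limma adjusted p = 0.0586). The kinase gene Hipk2 was at 10.4 ± 3.66 against 18.3 ± 4.28 FPKM (SD, n = 3 each; limma adjusted p = 0.105). Mdm4, the partner of Mdm2, was at 37.1 FPKM in Smad4 KO 0, 27.5 and 20.9 in the others and 19.4 to 25.2 in controls (limma adjusted p = 0.453), and it did not pass in the double mutants either (limma adjusted p = 0.295).

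Among other p53 targets of arrest and repair, more genes rose than fell in the double mutants. Of 20 tested, 9 rose and 1 fell in the double mutants (9.39% and 9.09% of all genes), with a median log2 fold change of 0.52. In Smad4 KO limma called 0 of the 20, and 11 had an unadjusted p below 0.05 (19.1% of genes), with a median of 0.59. Gdf15, among the 9 and the 11, had a control mean below 1 FPKM. It reached the test only through the mutant libraries, which fixed its direction. Without Smad4 KO 0 limma again called 0, 9 had an unadjusted p below 0.05 (22.4% of genes) and the median was 0.44. In Smad4 KO 15 of the 20 were at their highest in Smad4 KO 0, against 18.3% of genes. Gtse1, a microtubule-binding protein of the G2 phase that restrains p53, rose from 7.09, 8.08 and 5.98 FPKM to 21.2, 19.5 and 20.4 (log2 fold change 1.42 with SE 0.12, limma adjusted p = 0.00694). Ephx1, the microsomal epoxide hydrolase, rose from 7.02, 9.27 and 8.94 to 23.9, 20.9 and 27.7 FPKM (log2 fold change 1.42, limma adjusted p = 0.00997). In the first table it was at 121 FPKM in Smad4 KO 0, against 24.9 and 19.7 in the other Smad4 KO libraries, and the log2 fold change was 2.16 with and 1.36 without Smad4 KO 0. Psrc1, a spindle protein, rose from 4.61, 5.15 and 4.15 to 21.6, 12.6 and 19.9 FPKM (log2 fold change 1.73, limma adjusted p = 0.0118) and was at 54.3, 9.82 and 13 FPKM in Smad4 KO, where its log2 fold change was 1.91 with and 1.18 without library 0. Sesn2, the stress-induced relative of Sesn1, rose from 3.53, 2.97 and 3.36 to 7.44, 7.28 and 8.15 FPKM (log2 fold change 1.01 with SE 0.10, limma adjusted p = 0.00997). The sestrin genes therefore moved in opposite directions in the same double mutants.

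Of 10 other apoptosis targets tested, 0 rose and 2 fell in the double mutants, which is near the shares over all genes (9.39% and 9.09%). In Smad4 KO limma called 0, and 4 had an unadjusted p below 0.05 (19.1% of genes). Without Smad4 KO 0 these counts were 0 and 5. Casp6, an executioner caspase, fell from 66.8, 99.1 and 156 FPKM to 30.8, 42.6 and 36.8 (log2 fold change -1.45 with SE 0.31, limma adjusted p = 0.0296). Pidd1, whose protein carries a death domain, was at 14, 9.18 and 13.8 FPKM against 7.55, 6.29 and 8.17 in controls, separate but not called (limma adjusted p = 0.0531). Trp53i11 was at 22.9, 16.4 and 15.7 against 13, 9.24 and 11.6 FPKM (limma adjusted p = 0.0562).

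In the BCL2 family outside the members, 1 of 11 tested genes rose and 3 fell in the double mutants (9.39% and 9.09% of all genes). In Smad4 KO limma called 0, and 2 had an unadjusted p below 0.05, at the background of 19.1%; without Smad4 KO 0 these counts were 0 and 3. Bcl2l1, which encodes the survival protein BCL-XL, fell from 13.5, 19.3 and 18.2 FPKM to 9.77, 10.3 and 9.75 (log2 fold change -0.70 with SE 0.14, limma adjusted p = 0.027). The other genes that fell promote apoptosis: Bcl2l11 (BIM) went from 6.66 ± 1.05 to 4.28 ± 0.269 FPKM and Bad from 45.4 ± 6.66 to 31.9 ± 2.44 (SD, n = 3 each; limma adjusted p = 0.0395 and 0.0479). Bok, a relative of Bax, rose from 8.35, 11.6 and 5.75 to 17.8, 16.6 and 17.3 FPKM (log2 fold change 0.98 with SE 0.22, limma adjusted p = 0.035). Mcl1, a survival gene, was at 68.6 ± 2.75 against 78.6 ± 6.98 FPKM and did not pass (SD, n = 3 each; limma adjusted p = 0.224).

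**Figure D4:**
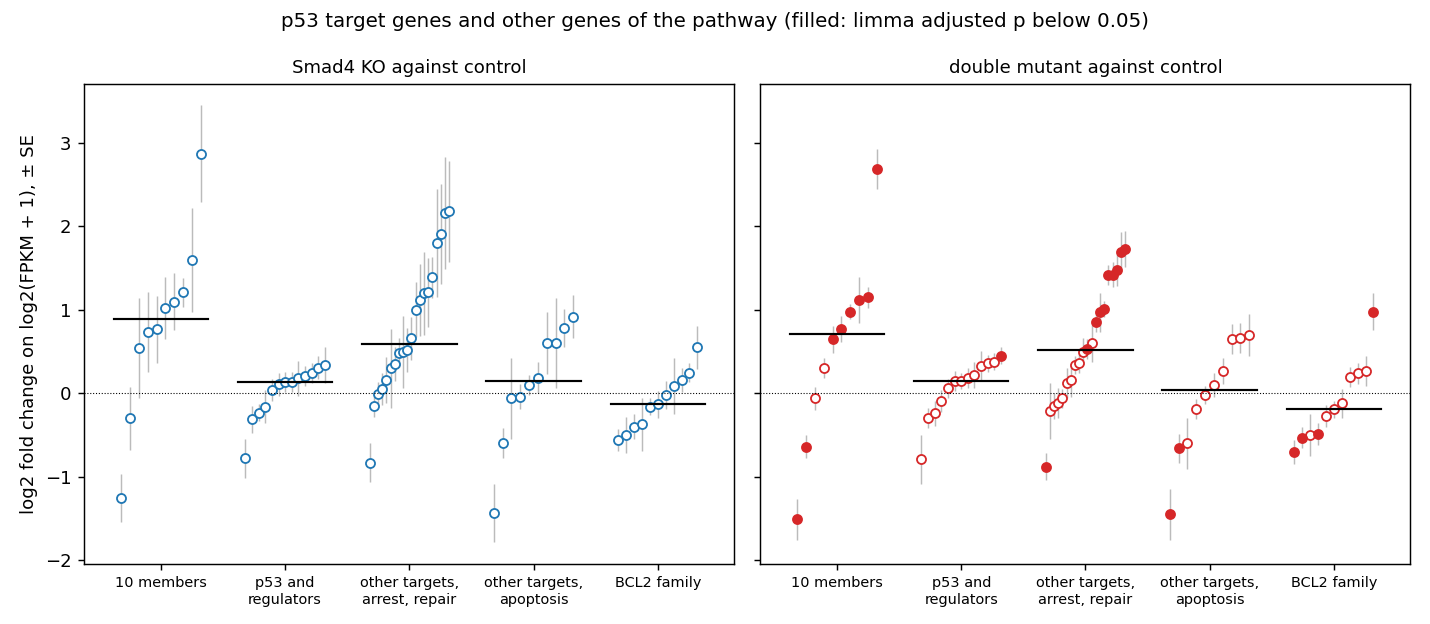
Log2 fold change on log2(FPKM + 1) with its standard error for the 10 p53 targets and 4 lists of other pathway genes, in Smad4 KO (left) and the double mutants (right); filled points passed limma over all genes and black lines are list medians. The other targets of arrest and repair have medians of 0.59 and 0.52, and the BCL2 family has medians of -0.13 and -0.19.

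Across the 9 libraries the members did not all follow each other. On log2(FPKM + 1), with the double mutants set on the scale of the first table, Mdm2 had a Pearson r of 0.96 with the mean z score of the other 9 members, and Ccng1 had 0.90. Pmaip1 had 0.30 and Sesn1 -0.41. Over 8 libraries, leaving out Smad4 KO 0, these values were 0.73 for Mdm2, 0.54 for Ccng1, -0.72 for Pmaip1 and -0.85 for Sesn1, and Cdkn1a went from 0.86 to -0.14. These values describe 9 libraries in 3 groups, of which Smad4 KO 0 had the highest score. Among 10799 other genes compared, the patterns most like the mean of the members were those of Glipr1 (r = 0.971), Crip2, Krt15 and Ercc5 (0.968 each) and Pear1 (0.967). Over the 8 libraries other than Smad4 KO 0 the r of these 5 genes was 0.78, 0.94, 0.91, 0.84 and 0.79 in the same order. Each was highest in Smad4 KO 0, as was the score that they were picked to follow. Crip2, Krt15 and Pear1 were below 1 FPKM in every control and passed the filter only through the mutant libraries. Ercc5 also stands in the list of arrest and repair targets. Glipr1 was at 26.2 FPKM there and at 3.07 to 5.67 in the other libraries, and Ercc5 at 14.1 and 5.92 to 8.94.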

How the data were processed

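Jejunal crypts were freed with EDTA, and RNA of 9 libraries, 3 per group, was sequenced after TruSeq RNA v2 preparation, per the labels' protocols; the kit keeps no strand. The authors deposited FPKM in 2 tables. The submitters' processing notes name TopHat2 2.1.1, the Cuffnorm 2.2.1 and Cuffdiff 2.2.1 programs and build mm9; of the annotation they used nothing is known here. A control library in the second table was its first-table self times a constant (1.03, 1.06 and 1.04 for controls 0, 1 and 2). FPKM hold no read numbers, so no counting interval is given.

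limma 3.58.1 (R 4.3.3) was fitted to log2(FPKM + 1), separately by table and with a mean-variance trend, over genes averaging 1 FPKM or more. Tests were two-sided, adjusted by Benjamini-Hochberg over all genes tested and called below 0.05. Fold changes on this scale understate low genes. The labels do not say whether replicates were separate mice, so p-values measure the spread between libraries. By Xist and Y-linked transcripts every group held libraries of both sexes, so no group came from a single mouse. The members, the lists and the named genes (per list the 4 with the smallest p in the double mutants, plus Trp53, Mdm4, Bcl2l1 and Mcl1, and the 5 genes most like the members) were chosen with earlier results of these data known. The values of 1 named gene are not reported here. Alternatives were pseudocounts, filters, scalings, no trend, a joint fit, sex, a replicate block and leaving out each library. The list counts and correlations without Smad4 KO 0 and the counts over genes expressed in controls were chosen after seeing the data. Promoter sequences are from RefSeq.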

Additional observations from a re-analysis of the deposited data

How the results depend on the processing

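In Smad4 KO the count of called members was 0 in every fit except that of all 9 libraries together, where it was 3. Genes called in Smad4 KO numbered 4, and 2 with pseudocount 5, 8 with quantile normalization, 7 without the 50 highest genes in the scaling, 451 in the joint fit, 2 with sex as a covariate and 5 to 16 on leaving out 1 library. In the double mutants 8 members were called, and 5 without a filter, 5 at a mean of at least 5 FPKM (7 members tested), 3 in the joint fit and 0 to 6 on leaving out 1 library. Genes called in the double mutants numbered 2173, and 1392 without a filter, 1703 in the joint fit and 30 to 1555 on leaving out 1 library. With the replicate number as a block, 1 gene was called in Smad4 KO and 0 members, and 1602 genes and 7 members in the double mutants. In Smad4 KO same-numbered libraries did not deviate together in every pair (r = -0.111, 0.223 and -0.099 for 0, 1 and 2). The other Smad4 KO pairs ran from -0.149 to 0.211. In the double mutants every same-numbered pair had a positive r (0.072, 0.132 and 0.037), and the other pairs ran from -0.108 to 0.032. Whether the numbers pair the libraries is therefore not settled. The sign of Cdkn1a in the double mutants was positive without the 50 highest genes in the scaling (0.004). On leaving out 1 library, Cdkn1a ran from -0.17 to 0.98 in Smad4 KO and from -0.14 to 0.061 in the double mutants, and Pmaip1 ran from -0.72 to 0.023 in Smad4 KO. The causes were not tested. Eda2r lost its call in the double mutants with pseudocount 5, without a filter, with quantile normalization, with sex, in the joint fit and with the block (limma adjusted p from 0.0529 to 0.218), and on leaving out any 1 library (not tested without double mutant 2).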

Other observations

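Gdf15, Plk2 and Zmat3, chosen after their values were seen from the 20 arrest and repair targets above, were highest in Smad4 KO 0. They are among the 15 of these 20 already counted, against 18.3% of all genes, and are not a further count. Gdf15, a secreted stress cytokine of the TGF-beta superfamily, was at 0.904, 0.283 and 0.295 FPKM in controls and at 15.9, 2.53 and 3.97 in Smad4 KO (0, 1 and 2, in this order). It was at 5.15, 3.11 and 3.41 FPKM in the double mutants, with a log2 fold change of 1.69 (limma adjusted p = 0.0151). The control mean of Gdf15 was below 1 FPKM, so it reached the test only through the mutant libraries, which fixed its direction. Plk2, a polo-like kinase, was at 2.18, 1.27 and 1.08 FPKM in controls, at 23.8, 4.15 and 3.97 in Smad4 KO and at 6.26, 5.3 and 6.77 in the double mutants (log2 fold change 1.48, limma adjusted p = 0.0126). Zmat3, a p53-induced zinc finger gene, was at 16.9 FPKM in Smad4 KO 0, at 4.44 and 4.02 in the others and at 2.19 to 2.86 in controls, and it rose to 5.13, 5.73 and 5.53 in the double mutants (log2 fold change 0.86, limma adjusted p = 0.0138). Gadd45a, a growth arrest gene and p53 target, went against these: it fell from 39.1 ± 6.84 to 20.8 ± 2.51 FPKM in the double mutants (SD, n = 3 each; log2 fold change -0.88, limma adjusted p = 0.0205) and was at 28.2, 16.8 and 17.7 FPKM in Smad4 KO against 31.7 to 44.4 in controls.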
